A study of Mus musculus with 4 samples.

Results

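Oligodendrocyte precursor cells were followed as single nuclei of photothrombotic brain lesions and of the parenchyma around them. A barcode was taken as a precursor nucleus when it held at least 757 gene UMIs (unique molecular identifiers, the counted transcripts), at least 5 UMIs of the markers Lhfpl3, Tnr, Cspg4, Sox10 and Vcan together, at least 1 UMI of Lhfpl3, at least 1 UMI of Cspg4 or Sox10, and at most 1 UMI in total of 7 genes of other cell types (Mog, Bnc2, Csf1r, Slc17a7, Gad2, Aqp4 and Flt1). This rule found 182 nuclei among 23489 barcodes, of which 22905 reached the UMI minimum. They comprised 73 lesional and 19 parenchymal nuclei of the library labelled control and 78 lesional and 12 parenchymal nuclei of the library labelled Cxcl12-cKO. The libraries are called control-labelled and cKO-labelled from here on.

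All mice received a photothrombotic (PT) injury of the cortex, made by illuminating the brain after injection of a light-sensitive dye, and were adult animals of the C57BL/6 background collected at 21 days post-injury (dpi). The control group was labelled WT, and the other group carried Col1a2(creER) with Cxcl12(flox). In that group tamoxifen activates a Cre recombinase that the Col1a2 promoter drives in fibroblasts, so that precursor cells are not the targeted cells. Each library pooled 1 male and 1 female mouse, with lesion and parenchyma nuclei carrying separate tags and mixed at 75% lesion and 25% parenchyma. There was 1 expression library per genotype, so the differences given here lie between single libraries, have no replicate check and carry no p-value. Intervals are exact 95% intervals and cover counting error only, and they do not cover the spread between mice or libraries.

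Oligodendrocyte precursor cells, also called NG2 glia after the proteoglycan that Cspg4 encodes, tile the adult brain, divide when PDGF binds their receptor Pdgfra, and receive synaptic input from neurons. They give rise to oligodendrocytes through a short committed stage in which Pdgfra is switched off and genes such as Bmp4, Gpr17, Enpp6 and Bcas1 are switched on, before genes of compact myelin such as Mbp. After focal injury they gather at the border of the lesion, where they add chondroitin sulfate proteoglycans to the scar and supply new oligodendrocytes.

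The label was checked with genes that the rule did not use. Ptprz1, a receptor-type phosphatase and proteoglycan of precursors and astrocytes, stood at 1468, 2158, 1755 and 737 UMIs per 1000000 (CPM) in the control-labelled lesion, control-labelled parenchyma, cKO-labelled lesion and cKO-labelled parenchyma. In all other barcodes of the same matrices it stood at 99.4, 44.1, 114 and 57.9 CPM. Nuclei of an astrocyte rule held 1310, 1423, 1243 and 1685 CPM, so that Ptprz1 does not set the precursors apart from astrocytes. Pdgfra, which marks precursors but also fibroblasts, stood at 190, 675, 249 and 373 CPM, against 82.4, 1.69, 104 and 2.25 CPM in the other barcodes. Olig2, a transcription factor of the whole lineage, gave 11, 6, 19 and 1 UMIs, or 36.6, 44.0, 57.1 and 8.67 CPM, against 0.0959 to 1.05 CPM in the other barcodes. Ptprz1, Pdgfra and Olig2 were thus above the pool of other nuclei in each matrix, Olig2 on 1 UMI in the cKO-labelled parenchyma. Olig1, another lineage factor that the rule did not use, was seen in 3 of 73 and 4 of 78 lesional nuclei (4.11% and 5.13%). Lesional nuclei of an oligodendrocyte rule held it in 8.84% and 4.83%, so that Olig1 did not set the lesional nuclei apart from that class. In the parenchyma it was seen in 9 of 19 and 4 of 12 nuclei. Pdgfra was seen in 21 of 73 control-labelled lesional nuclei (28.8%, 18.8% to 40.6%) and in 25 of 78 cKO-labelled lesional nuclei (32.1%, 21.9% to 43.6%). It was seen in 15 of 19 control-labelled (78.9%, 54.4% to 93.9%) and 7 of 12 cKO-labelled (58.3%, 27.7% to 84.8%) parenchymal nuclei. Among oligodendrocytes of the same lesions, found by a like rule and expected to lack the gene, it was seen in 2.72% and 4.14% of nuclei, at a median of 2746 and 2577 UMIs per nucleus against 3565 and 3878 in the precursors. After thinning to 2000 UMIs, Pdgfra was seen in 19.7%, 70.6%, 20.8% and 58.3% of precursor nuclei. Most lesional nuclei that the rule chose thus had no Pdgfra UMI, and a share of them went against the label, as their other genes showed.

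The values that chose the nuclei were as follows and are a description only. Lhfpl3 stood at 5864, 5778, 9046 and 2030 CPM, and Tnr at 7165, 4992, 8665 and 1752 CPM, in the order of matrices used above. Cspg4 was seen in 76 and Sox10 in 147 of the 182 nuclei. At the marker threshold, 6 nuclei held exactly 5 marker UMIs and 5 barcodes with 4 fell just outside. Of the 182 nuclei 120 held no UMI of the genes of other cell types and 62 held 1, while 49 barcodes with 2 such UMIs fell just outside and 218 had more than 1 in all.

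Depth and mixing differed by region. Precursor nuclei held a median of 3565, 5461, 3878 and 4985.5 UMIs, against 2941, 17068, 2923 and 17925 UMIs over all barcodes at the minimum. Mitochondrial transcripts made up 0.986% and 1.09% of precursor UMIs in the lesions and 0.132% and 0.165% in the parenchyma. Each of the 182 nuclei had the tag of its own region as its highest tag. Between 0 and 22 barcode sequences occurred in both of any pair of matrices, and 2 precursor barcodes also occurred in another matrix, but not as a precursor there. Cxcl12 in nuclei of a fibroblast rule went against the labels, at 99.7 CPM in the control-labelled lesion and 210 CPM in the cKO-labelled lesion (log2 ratio 1.07, 0.99 to 1.16). Which exons the allele deletes was not found in the sources read, and 3′ counts outside a deletion would check nothing, so the libraries are named by their labels throughout.

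Nuclei chosen by the rule, called precursor nuclei whatever their group, made up a similar, small share of both lesions. Of them, groups 2 and 5, called precursor-like below, held 14 and 4 of 73 control-labelled lesional nuclei. In the cKO-labelled lesion they held 21 and 4 of 78. In the control-labelled lesion they were 0.877% of barcodes (73 of 8321, 0.688% to 1.10%) and in the cKO-labelled lesion 0.955% (78 of 8169, 0.755% to 1.19%). The log2 ratio of cKO-labelled to control-labelled share was 0.12 (-0.36 to 0.60), with an interval that spans 0. In the parenchyma they were 0.589% (19 of 3228) and 0.377% (12 of 3187). Lesional over parenchymal share gave a log2 ratio of 0.58 (-0.17 to 1.39) in the control-labelled library and 1.34 (0.46 to 2.36) in the cKO-labelled library. Oligodendrocytes found by the like rule gave 1.25 and 1.36, and astrocytes 2.35 and 2.06, so all 3 glial classes made up a larger share of the lesion than of the parenchyma, with the interval of the precursors in the control-labelled library reaching below 0.

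The share depended on what else was captured. Nuclei of the fibroblast rule held 53.7% and 50.2% of lesional barcodes and 1.46% and 1.26% of parenchymal barcodes. With them left out of the denominator, the lesional over parenchymal ratio of precursors in the control-labelled library was 1.67 (0.92 to 2.48) on the log2 scale. A share of nuclei cannot tell fewer cells from fewer recovered nuclei, and fewer nuclei from less RNA per nucleus at a fixed UMI minimum. After each barcode was thinned to 2000 UMIs, the shares were 1.05%, 0.475%, 1.17% and 0.389%, in the same order, with 2241, 67, 2199 and 106 shallower barcodes left out.

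Barcodes with only Xist or only Y-linked UMIs were assigned to the female or the male mouse of a library. Of 73 control-labelled lesional precursors 9 held both kinds and 10 neither, and of 78 cKO-labelled ones 9 and 8, and such barcodes entered neither share. Among lesional nuclei assigned to the female mice, precursors were 0.636% (22 of 3460) in the control-labelled library and 1.11% (38 of 3413) in the cKO-labelled library. Among those of the male mice they were 1.15% (32 of 2786) and 0.901% (23 of 2554). The order of the labels thus differed between the sexes, and each value is that of 1 mouse. The fibroblast share moved with it, from 54.7% to 41.1% in the female and from 57.4% to 63.9% in the male mice, and its part in the precursor shares was not tested.

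**Figure D1:**
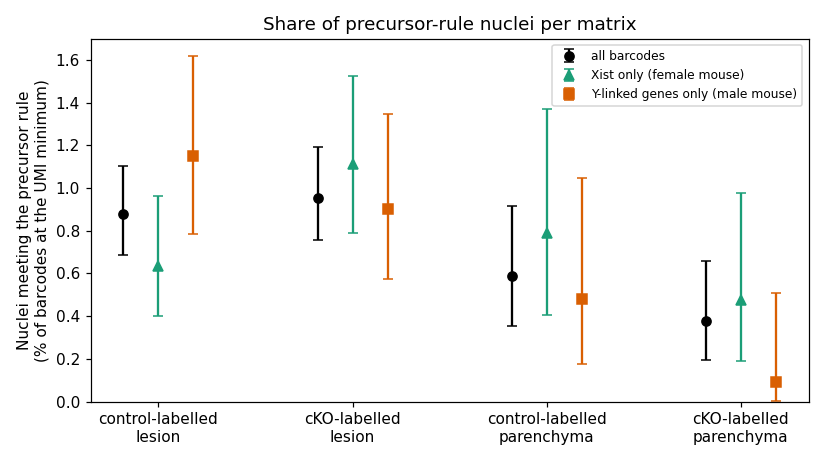
Share of precursor nuclei among barcodes at the UMI minimum (percent, vertical axis) in the 4 matrices, for all nuclei and for nuclei assigned to the female or the male mouse, with exact 95% intervals of counting error. The 2 lesions lie close together for all nuclei (0.877% and 0.955%), while the female and male values lie in opposite order.

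The 182 nuclei were not of one kind. A graph-based grouping on their own expression gave 6 groups of 47, 35, 34, 29, 28 and 9 nuclei. The groups were made from these same values after the data had been seen, so their genes and sizes are a description with no test. At 4 other resolutions the adjusted Rand index with this grouping was 0.84 to 0.94. Lesional nuclei lay mostly in groups 1 to 4 and parenchymal nuclei mostly in groups 5 and 6. Groups 1, 2 and 4 together held 1 parenchymal nucleus.

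Group 5, led by Gpc5 (a cell-surface heparan sulfate proteoglycan), Rtl4, Pdgfra and Cspg5 (a neural proteoglycan), was oligodendrocyte-precursor-like by the markers that the rule did not use. Pdgfra stood at 1079 CPM and was seen in each of its 28 nuclei. Olig1, a basic helix-loop-helix factor of the lineage, stood at 152 CPM, Olig2 at 96.8 CPM and Ptprz1 at 3168 CPM. Enpp6, Top2a and Gfap had no UMI there. This group held 14 of 19 control-labelled and 6 of 12 cKO-labelled parenchymal nuclei, but 4 of 73 and 4 of 78 lesional nuclei.

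Group 2 held most lesional nuclei with a Pdgfra UMI. Its 35 nuclei came from the lesions only, 14 from the control-labelled and 21 from the cKO-labelled one. Pdgfra was seen in 30 of 35 at 628 CPM, Ptprz1 stood at 3377 CPM and Olig2 at 86.6 CPM, so that the group was also precursor-like. Its leading genes included Top2a, the topoisomerase that untangles replicated DNA, at 303 CPM in 11 of 35 nuclei, Prim2, a primase subunit, and Ccnd1, the cyclin of G1 phase. Mki67, the Ki-67 proliferation antigen, stood at 144 CPM on 20 UMIs in 4 nuclei. In groups 1, 3 and 5 Top2a had no UMI.

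Group 3 carried genes of the committed stage. Its 34 nuclei were 11 and 20 lesional control-labelled and cKO-labelled nuclei, with 2 and 1 parenchymal nuclei. Bmp4, a secreted ligand that precursors make as they commit, stood at 379 CPM. Neu4, a sialidase, stood at 364 CPM, Nkx2-2, a homeobox factor of commitment, at 386 CPM and Gpr17, an orphan receptor of the committed stage, at 245 CPM. Pdgfra had no UMI in this group. Bcas1, a protein of newly formed oligodendrocytes, was seen in 34 of 34 nuclei at 5214 CPM.

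Group 4 carried myelin genes. Its 29 nuclei were all lesional, 13 control-labelled and 16 cKO-labelled. Mbp, myelin basic protein, was seen in 28 of 29 nuclei at 3450 CPM, a level close to the 3456 and 3698 CPM of the oligodendrocyte rule in the same lesions. Mag, a myelin-associated adhesion protein, stood at 318 CPM. Tcf7l2, a Wnt effector of the differentiating stage, stood at 3013 CPM and Enpp6, a choline phosphodiesterase of newly forming oligodendrocytes, at 1198 CPM. Pdgfra had no UMI in it, so that by Pdgfra and Mbp this group went against the label. Since at most 1 UMI of Mog was allowed by the rule, its low Mog is not a finding.

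Group 1, with 47 nuclei the most numerous, went against the label and is called here by its leading genes P4ha3 (a prolyl hydroxylase of collagen) and Gfap (the intermediate filament of reactive astrocytes). It held 29 control-labelled and 17 cKO-labelled lesional nuclei and 1 control-labelled parenchymal nucleus. Gfap was seen in 27 of 47 nuclei at 559 CPM, against 0 to 21.6 CPM in the other groups. Glis3, a zinc finger factor, stood at 2191 CPM, Aldh1a1, a retinaldehyde dehydrogenase, at 663 CPM, and Cdh19, a cadherin of Schwann cells and glia, at 741 CPM. Aqp4, the astrocyte water channel, was seen as 1 UMI in 17 of 47 nuclei, the highest number that the rule allowed.

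Other genes of group 1 were compared with those classes. Olig1 had no UMI in it, where 3 UMIs would be 19.5 CPM, and Pdgfra was seen in 8 of 47 nuclei at 117 CPM. Ptprz1, which astrocytes share, stood at 1379 CPM. Sox10 stood at 351 CPM in this group, against 19.9 and 18.1 CPM in lesional nuclei of the astrocyte rule, but Sox10 was used to choose the nuclei. P4ha3 stood at 228 CPM, beside 199 and 235 CPM in the astrocyte rule and 2.16 and 4.15 CPM in the oligodendrocyte rule. Slc1a2 and Slc1a3, the glial glutamate transporters, stood at 325 and 416 CPM, and Gja1, the connexin of astrocytes, at 13.0 CPM. Lesional nuclei of the astrocyte rule, which used these 3 genes, held more of each, with Slc1a2 at 2136 and 2161 CPM, Slc1a3 at 2084 and 2762 CPM and Gja1 at 173 and 117 CPM. Prx, a Schwann cell gene, had no UMI in any group. No cell type name is given to group 1.

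Group 6 stood apart as neuronal. Its 9 nuclei had a median of 16771 UMIs, and 55.6% of them held both Xist and Y-linked UMIs. Rbfox3, the neuronal splicing factor NeuN, was seen in 9 of 9 nuclei, and Syt1, a synaptic vesicle protein, stood at 3491 CPM. Pdgfra was seen in 2 of 9 nuclei. This group held 6.91% of precursor UMIs in the control-labelled lesion, 32.0% in the control-labelled parenchyma, none in the cKO-labelled lesion and 76.9% in the cKO-labelled parenchyma, where it was 5 of 12 nuclei. Comparisons that use the parenchyma are therefore given with these 9 nuclei and, for the lists and most named genes, without them, and the cKO-labelled parenchyma then rests on 7 nuclei with 26633 UMIs. At that depth 3 counts are 112.6 CPM, against 26.0 CPM with the neuronal group, so that a gene with no UMI there gives a weaker bound.

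**Figure D2:**
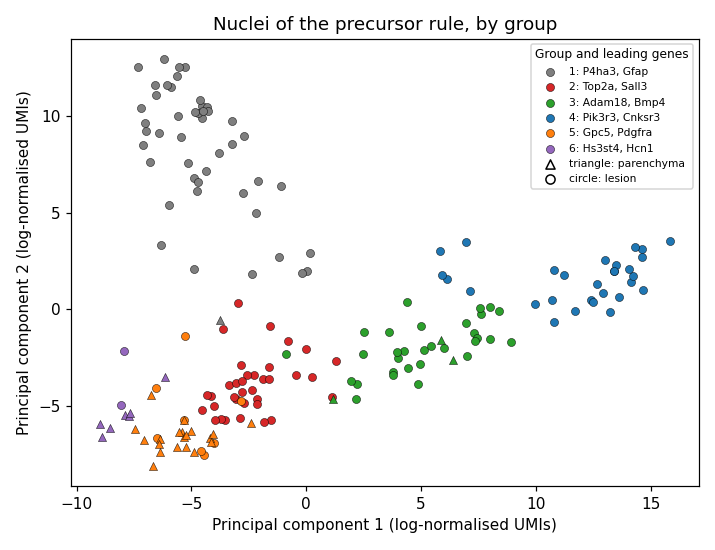
The 182 nuclei on the first 2 principal components of their expression (arbitrary units), coloured by group, with circles for lesional and triangles for parenchymal nuclei. Parenchymal nuclei lie mostly among groups 5 and 6, and lesional nuclei among groups 1 to 4.

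**Figure D3:**
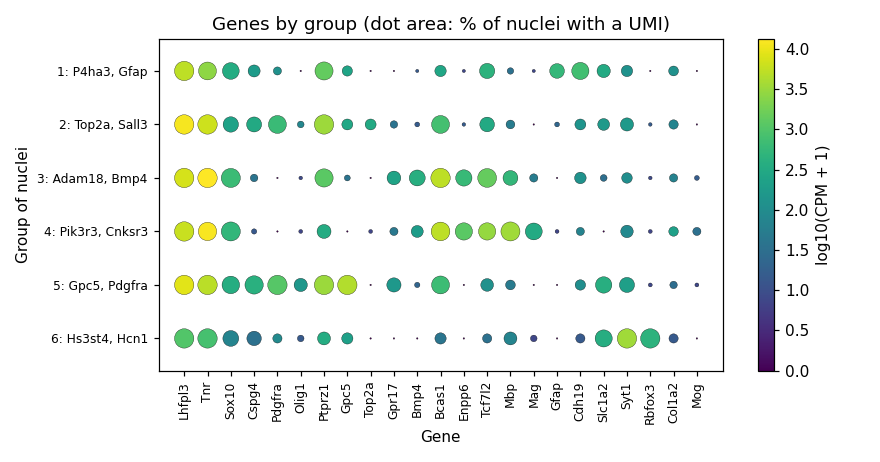
Named genes (one axis) in the 6 groups (other axis), with dot area for the percent of nuclei with a UMI and colour for the level as log10 of CPM with 1 added. Pdgfra is seen most often in groups 5 and 2, Bmp4 and Gpr17 are highest in group 3, Mbp in group 4, Gfap in group 1 and Rbfox3 in group 6.

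The precursor share followed these groups. Without group 6, lesional over parenchymal share was 0.70 (-0.08 to 1.55) on the log2 scale in the control-labelled library and 2.12 (1.01 to 3.48) in the cKO-labelled library. Without group 1 it was -0.08 (-0.90 to 0.80) and 0.99 (0.08 to 2.02). Leaving out group 1, with 29 lesional and 1 parenchymal control-labelled nuclei, lowers the ratio by construction. Groups 2 and 4, which held no parenchymal nucleus, were not left out in turn. With all groups the interval of the control-labelled library already reached below 0. With precursors limited to nuclei that held a Pdgfra UMI, the same ratio was -0.88 in that library. Fewer nuclei and less Pdgfra RNA per nucleus cannot be told apart in that count.

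Lesion and parenchyma were compared gene by gene on UMIs summed over the precursor nuclei of a matrix. A gene counted as higher or lower when it had at least 20 UMIs over both matrices and differed at least 2-fold, with 0.5 added to each sum. In the control-labelled library 4006 genes had enough UMIs, of which 16.8% were higher and 10.8% lower in the lesion. In the cKO-labelled library 4074 genes had enough, of which 25.8% were higher and 13.3% lower. The median gene stood at 0.17 and 0.33 on the log2 scale, so that a list is to be read beside those shares and shifts. With the neuronal group left out, the shares were 18.3% higher and 9.82% lower in the control-labelled library, and 22.7% and 12.6% in the other.

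Pdgfra was lower in the lesion. It gave 57 UMIs in the control-labelled lesion and 92 in the control-labelled parenchyma, or 190 and 675 CPM. In the cKO-labelled library it gave 83 lesional and 43 parenchymal UMIs, or 249 and 373 CPM. Both parenchymal levels lay above both lesional levels. The log2 ratio of lesion to parenchyma was -1.83 (-2.33 to -1.34) and -0.59 (-1.13 to -0.01). Without the neuronal group the levels were 204, 939, 249 and 1277 CPM, in the order control-labelled lesion and parenchyma, then cKO-labelled lesion and parenchyma, and the ratios -2.20 and -2.37. The smaller difference of the cKO-labelled library in the full count thus rested on 5 neuronal nuclei.

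The values of other identity genes depended on the neuronal group. Of the 20 genes on that list, 18 had enough UMIs in the control-labelled library, with 1 higher and 8 lower in the lesion and a median log2 ratio of -0.93. In the cKO-labelled library 9 of 18 were higher and 0 lower, with a median of 1.04. Once the neuronal group was left out, the counts were 0 higher and 11 lower of 18 (median -1.22) and 2 higher and 6 lower of 18 (median -0.54). The list's summed level was then 16613 and 31063 CPM in control-labelled lesion and parenchyma and 19633 and 28348 CPM in the cKO-labelled pair. The list holds genes that the rule used, so its level is in part fixed by the choice of nuclei.

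Olig1, which the rule did not use, gave 3, 16, 12 and 6 UMIs in control-labelled lesion, control-labelled parenchyma, cKO-labelled lesion and cKO-labelled parenchyma. It was seen in 3 of 73, 9 of 19, 4 of 78 and 4 of 12 nuclei. Its log2 ratio of lesion to parenchyma without the neuronal group was -3.64 and -2.70. Sox6, a factor that holds precursors undifferentiated, had a ratio of 0.27 and 2.49 with the neuronal group and -0.14 and 0.51 without it. Dscam, an adhesion molecule, had -0.88 and 1.13 with it and -1.16 and -0.29 without it. For these genes the cKO-labelled value depended on the neuronal nuclei, while the lower Olig1 in the lesion did not.

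Genes of the committed stage were higher in both lesions by level. The share of nuclei with 3 or more UMIs of these genes was alike in the regions. It was 87.7% and 89.5% in control-labelled lesion and parenchyma, and 92.3% and 91.7% in the cKO-labelled pair. After thinning to 2000 UMIs it was 77.3%, 70.6%, 84.7% and 58.3%, in that order. Of 16 genes on the list, 14 had enough UMIs in the control-labelled library, with 9 higher and 1 lower in the lesion and a median of 1.62. In the cKO-labelled library 10 of 13 were higher and 0 lower, with a median of 3.07, or 2.99 with genes at 0 UMIs set to their bound. The list summed to 9531 CPM in the control-labelled lesion and 3612 CPM in its parenchyma, and to 10698 and 1388 CPM in the other library. When the neuronal group was left out, 7 of 13 were higher and 2 lower (median 1.04), and 9 of 13 higher and 2 lower (median 1.11). The parenchymal sums were then 4943 and 4769 CPM, close to each other, and the lesional sums 10192 and 10698 CPM.

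Tcf7l2 was among the clearest of them. It gave 385, 13, 404 and 5 UMIs, or 1281, 95.4, 1214 and 43.4 CPM, in the same order of matrices. The lesions lay together and far above the parenchyma, with log2 ratios of 3.69 (2.96 to 4.67) and 4.67 (3.57 to 6.44), and 3.23 and 2.85 without the neuronal group. Enpp6 gave 120, 4, 148 and 5 UMIs, with ratios of 3.60 and 3.23, and 3.15 and 1.11 without that group. The interval of the last spanned 0 (-0.01 to 2.89), on 5 parenchymal UMIs in 1 nucleus. Itpr2, a calcium release channel used by committed cells, gave 436, 57, 627 and 22 UMIs, with 1.78 and 3.27, and 1.51 and 1.36 without that group.

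Bmp4 gave 44, 4, 38 and 1 UMIs, or 146, 29.4, 114 and 8.67 CPM, with log2 ratios of 2.16 and 3.15, and 1.71 and 1.04 without the neuronal group. The interval of the last spanned 0 (-0.96 to 6.95), on 1 parenchymal UMI. Bcas1 gave 687, 147, 930 and 38 UMIs and ratios of 1.08 and 3.07, but 0.67 and 1.03 without the neuronal group, so that the control-labelled value was then under 2-fold. Gpr17 lay the other way, at 63.2, 147, 54.1 and 95.4 CPM, with ratios of -1.21 and -0.84, and -1.67 and -2.96 without that group. The list was thus mostly but not wholly higher in the lesion, and the parenchymal sums rest on 19 and 12 nuclei.

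Myelin genes were higher in both lesions as well. Of 14 genes, 7 had enough UMIs in each library, with 6 higher in the control-labelled library and 7 in the cKO-labelled library, and none lower. The medians were 2.49 and 2.78, the second being 2.44 with genes at 0 set to their bound. The summed level was 3797 CPM in the control-labelled lesion against 631 CPM in its parenchyma, and 3206 against 425 CPM in the other library. Group 4, which was lesional only and went against the label, held 1682 UMIs of the list, against 29 to 453 in each other group. No comparison without group 4 is given, so its part in the regional difference was not tested. With the neuronal nuclei removed 6 of 7 and 5 of 7 were higher, with medians of 2.04 and 1.91. Mbp gave 332, 15, 300 and 9 UMIs, or 1105, 110, 901 and 78.1 CPM, so that both lesions lay above both parenchymas. Its log2 ratios were 3.28 (2.58 to 4.18) and 3.45 (2.59 to 4.67), and 3.14 and 4.00 without the neuronal group. St18, a zinc finger factor of the lineage, had 3.05 and 2.96, and 2.59 and 0.95 without the neuronal group.

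Mbp is abundant in oligodendrocytes, so its spread over nuclei was looked at. It was seen in 25 of 73, 6 of 19, 36 of 78 and 4 of 12 precursor nuclei, against 5.49%, 16%, 11.1% and 12.5% of nuclei of the astrocyte rule, which should lack it, at medians of 3636, 6267, 4017.5 and 5208.5 UMIs. Its UMIs lay mostly in group 4. The 29 nuclei of that group held 553 Mbp UMIs, against 5 in group 1, 7 in group 2 and 7 in group 5. Its levels were 32.5, 50.5, 542, 3450, 48.4 and 71.9 CPM in groups 1 to 6.

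Genes of dividing cells were sparse, and their summed level was higher in the lesion. Of 28 such genes, only 2 and 4 had enough UMIs, with 1 and 3 higher in the lesion and none lower. The list summed to 592 and 198 CPM in control-labelled lesion and parenchyma (log2 ratio 1.56, 0.99 to 2.22) and to 1003 and 147 CPM in the cKO-labelled pair (2.73, 2.07 to 3.56). All other barcodes showed the same order, at 258 and 93.5 CPM and at 370 and 96.2 CPM. A single nucleus of group 2 held 28.1% of the list's UMIs in the control-labelled lesion and another 24.6% in the cKO-labelled lesion. The parenchymal sums without the neuronal group were 173 and 188 CPM. Diaph3, a formin of the dividing cell's cortex, gave 44, 5, 56 and 2 UMIs, with ratios of 1.87 and 2.97, and 2.04 and 0.85 (-0.76 to 4.24) without that group. Top2a gave 15 and 28 UMIs in the lesions and none in either parenchyma, which is at least 2.27-fold and 3.23-fold higher against a floor of 3 counts over the parenchymal nuclei. The bound without the neuronal group was 1.66-fold in the control-labelled library, and none could be given in the other. A single nucleus of group 2 held 60.0% and 42.9% of those UMIs.

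Single nuclei could not be called dividing at this depth. UMIs of at least 2 dividing-cell genes were seen in 19.2% and 24.4% of lesional precursor nuclei, but also in 20.4% and 13.1% of lesional oligodendrocytes and 16.8% and 28.1% of lesional astrocytes. The median depths were 3565 and 3878 UMIs in the precursors, 2746 and 2577 in the oligodendrocytes, and 3636 and 4017.5 in the astrocytes. After thinning, the precursor shares were 12.1%, 5.88%, 18.1% and 0% in the order of matrices, where the count of 0 is of 12 nuclei (upper 95% limit 26.5% for nuclei with such UMIs). By group the unthinned share was 42.9% in group 2 and 8.51% to 23.5% in groups 1, 3, 4 and 5. In the neuronal group 6 it was 44.4% (4 of 9), at a median of 16771 UMIs.

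The comparison was repeated on nuclei with a Pdgfra UMI alone. Groups 3 and 4, which hold most committed-stage and myelin UMIs, have no Pdgfra UMI, so this choice removes them by construction and nothing is read from the smaller differences of those lists. It held 21 and 15 nuclei in the control-labelled library and 25 and 7 in the cKO-labelled library. Committed-stage genes summed to 2766 and 2365 CPM in the control-labelled lesion and parenchyma and to 2560 and 1732 CPM in the cKO-labelled pair. Identity genes were past 2-fold in 0 of 14 and in 1 of 14. The dividing-cell list stood at 1690 against 172 CPM and at 2220 against 223 CPM, with 2 of 2 and 2 of 3 genes higher. Group 2 holds most lesional nuclei with a Pdgfra UMI, and 376 UMIs of this list against 25 to 55 in the other groups. Choosing nuclei by Pdgfra thus favours the list in the lesion, and nothing is read from that gap either. In that subset 11.2% and 17.9% of all genes with enough UMIs were higher in the lesion.

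**Figure D4:**
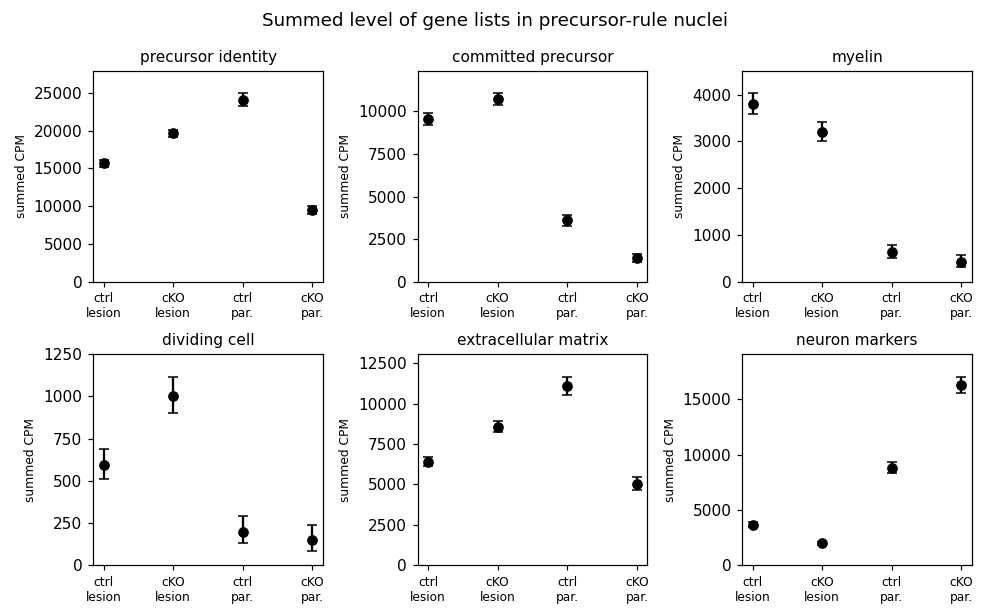
Summed level of 6 gene lists (CPM, linear axes from 0, with exact 95% intervals of counting error) in the precursor nuclei of the 4 matrices, all groups included. Committed-stage, myelin and dividing-cell genes lie higher in both lesions, while neuron markers reach 16299 CPM in the cKO-labelled parenchyma.

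Markers of other cell types differed between the regions too, and their part in the values above was not tested. Astrocyte markers summed to 1175, 3406, 1094 and 1492 CPM in control-labelled lesion and parenchyma, then cKO-labelled lesion and parenchyma, and to 1205, 4533, 1094 and 3980 CPM without the neuronal group. Gpc5, at 2768 CPM in the control-labelled parenchyma, is 1 of the 10 genes on that list, and the list's highest sum of any group was the 5354 CPM of group 5, against 2061 CPM in group 1. Oligodendrocyte markers summed to 2047, 301, 1836 and 234 CPM, and 4 of 4 were higher in the lesion of each library, while the sums without the neuronal group were 2195, 399, 1836 and 263 CPM. Myeloid markers summed to 559, 147, 288 and 130 CPM, and to 572, 194, 288 and 300.4 CPM without the neuronal group. The last of these rests on 8 UMIs, and the order of the cKO-labelled regions in myeloid markers thus depended on that group. Schwann cell markers gave 104, 9, 68 and 2 UMIs, of which 101, 8, 67 and 2 were of Cdh19, and 104, 8, 68 and 1 without the neuronal group. Endothelial markers gave 5, 2, 7 and 0 UMIs and T cell markers 7, 0, 0 and 0. Mural cell markers gave 7, 40, 7 and 1 UMIs, with the 40 in a single nucleus of group 1.

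Growth factor receptors and their targets were mostly within 2-fold or lower in the lesion. Of 22 genes, 0 were higher and 4 lower among 11 in the control-labelled library, and 2 higher and 3 lower among 12 in the cKO-labelled library (0 and 4 of 10, and 1 and 3 of 10, without the neuronal group). Over all genes 16.8% were higher and 10.8% lower in the first library, and 25.8% and 13.3% in the second. Beside those shares, counts of 1 or 2 genes in this and the next 2 lists are not read as a result about a list. Etv5, a target of receptor tyrosine kinase signalling, gave 13, 25, 12 and 31 UMIs, with ratios of -2.06 and -2.86, and -1.81 in each library without the neuronal group. Etv1, a related factor, had -1.14 and -1.26, and -1.37 and -2.34 without that group. Ntrk2, the receptor of brain-derived neurotrophic factor, gave 116, 73, 91 and 92 UMIs, with -0.48 and -1.55, and -0.76 and -1.49 without that group. Erbb4, a neuregulin receptor, was past 2-fold in the cKO-labelled library only, and was 0.50 and 0.52 without the neuronal group. Among 29 genes of the Notch, BMP and Wnt pathways, 6 had enough UMIs in each library, with 2 and 1 higher and none lower, and with 1 and 2 higher and 1 lower in each without the neuronal group. Bmpr1b, a BMP receptor, gave 58 UMIs in the control-labelled lesion and 0 in its parenchyma, at least 8.76-fold higher (6.40-fold without the neuronal group), and 36 and 3 UMIs in the cKO-labelled pair (log2 ratio 1.85, 0.39 to 4.40), all 3 of the latter in the neuronal group. Of 14 genes of the TGFβ axis, 1 was higher and 1 lower among 8 in the control-labelled library and 5 higher and 1 lower among 7 in the cKO-labelled library, but 1 and 1 among 8, and 1 and 0 among 5, without the neuronal group.

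Extracellular matrix genes were mixed. Of 31 genes, 3 were higher and 5 lower among 16 in the control-labelled library, and 9 higher and 1 lower among 14 in the cKO-labelled library. Over all genes 16.8% were higher and 10.8% lower in the first library and 25.8% and 13.3% in the second. Without the neuronal group the counts were 1 and 5 of 15, and 4 and 2 of 14. Gpc5 gave 112, 377, 179 and 102 UMIs, or 373, 2768, 538 and 885 CPM, so that both parenchymas lay above both lesions. Its log2 ratios were -2.89 (-3.21 to -2.58) and -0.72 (-1.08 to -0.35), and -3.28 and -2.57 without the neuronal group. Cspg5 gave 47, 71, 37 and 42 UMIs, with -1.73 and -1.71, and -1.99 and -3.09 without that group. Col11a1, a fibrillar collagen chain, lay the other way at 532, 132, 829 and 69.4 CPM, with 1.98 and 3.49, and 1.60 and 1.77 without that group. Sulf1, which trims heparan sulfate, had 1.71 and 1.78, and 0.84 (-0.25 to 2.32) and 1.25 (-0.74 to 7.15) without that group. Fibroblast markers summed to 349, 95.4, 309 and 86.7 CPM in the precursors, and 372, 119, 309 and 113 CPM without the neuronal group, against 4819, 72.9, 4506 and 79.1 CPM in other barcodes, and their part in the collagen levels was not tested.

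Genes of adhesion and guidance were split. Of 42 genes, 7 were higher and 7 lower among 34 in the control-labelled library, and 10 and 10 among 34 in the cKO-labelled library. The counts of higher genes lay near the shares over all genes, 16.8% and 25.8%, beside 10.8% and 13.3% lower. When the neuronal nuclei were left out, 4 were higher and 7 lower of 34, and 7 higher and 4 lower of 32. Sema4d, a membrane semaphorin of oligodendrocytes, gave 83, 6, 72 and 4 UMIs, with log2 ratios of 2.54 and 2.48, and 2.31 and 1.95 without the neuronal group. Sema3d, a secreted semaphorin, had 1.54 and 2.67, and 1.15 and 0.70 (-0.18 to 1.93) without that group. Robo1, a Slit receptor, gave 61, 97, 90 and 147 UMIs, with -1.81 and -2.23, and -1.93 and -1.87 without that group. Lrrtm4, a synaptic adhesion protein, stood at 1524, 3737, 1382 and 5491 CPM, with -1.29 and -1.99, and -1.51 and -1.23 without that group. Both semaphorin genes thus lay higher and Robo1 and Lrrtm4 lower in both lesions, though the cKO-labelled interval of Sema3d spanned 0 without the neuronal group.

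Among receptors and channels for neuronal input more genes were lower than higher in the lesion, though without the neuronal group most did not pass 2-fold. Of 33 genes of glutamate and GABA signalling, 3 were higher and 13 lower among 30 in the control-labelled library, and 2 higher and 17 lower among 28 in the cKO-labelled library. Of 31 ion channel genes, 2 were higher and 12 lower among 26, and 0 higher and 12 lower among 25. The receptor list without the neuronal group had 3 higher and 8 lower of 24, and 2 higher and 5 lower of 22, with medians of -0.34 and -0.38. The channel list then had 1 higher and 10 lower of 25, and 1 higher and 9 lower of 23, with medians of -0.61 and -0.59. Neuron markers moved with these lists, from 3661 CPM in the control-labelled lesion to 8802 CPM in its parenchyma and from 1968 to 16299 CPM in the other library. Removal of the neuronal group brought those 4 values to 1777, 3929, 1968 and 3792 CPM.

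Single receptor genes differed in how far they rested on the neuronal nuclei. Grm5, a metabotropic glutamate receptor of precursors, gave 97, 119, 210 and 302 UMIs, with log2 ratios of -1.43 and -2.05, and -1.24 and -1.34 without the neuronal group. Kcnd2, a potassium channel of A type, stood at 1474, 3597, 2112 and 3374 CPM, with -1.29 and -0.68, and -1.59 and -1.10 without that group. Scn1a, a sodium channel, had -1.89 and -2.55, and -2.16 and -1.97 without it. Kcnip4, a subunit of A-type channels, stood at 709, 4581, 379 and 4910 CPM with ratios of -2.69 and -3.69, but 0.07 and -0.87 without that group. Grin2b, an NMDA receptor subunit, had -1.32 and -4.61, but 0.73 and 0.13 without it. The lower Grm5, Kcnd2 and Scn1a did not rest on the neuronal group, whereas Kcnip4 and Grin2b did.

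Injury and interferon genes were sparse. Their counts stand beside 16.8% higher and 10.8% lower over all genes in the control-labelled library, and 25.8% and 13.3% in the cKO-labelled library. Of 36 genes of injury and stress responses, 5 were higher and 1 lower among 10 in the control-labelled library, and 5 higher and 1 lower among 9 in the cKO-labelled library (5 and 1 of 10, and 3 and 1 of 7, without the neuronal group). Stat3, the transducer of interleukin-6 family signals, gave 57, 10, 93 and 7 UMIs, with ratios of 1.31 and 2.11. They were 0.76 (-0.18 to 1.95) and 1.10 (-0.28 to 3.61) without the neuronal group. Of 37 genes of antigen presentation and interferon response, 3 of 5 and 4 of 4 were higher, and 2 of 5 and 3 of 4 without the neuronal group. That list summed to 905, 433, 802 and 286 CPM in control-labelled lesion and parenchyma, then cKO-labelled lesion and parenchyma. All other barcodes showed the same order, at 1856, 174, 1905 and 184 CPM. The injury list summed to 1654, 800, 1622 and 625 CPM, against 2204, 519, 2778 and 512 CPM in other barcodes. The part of free RNA in both lists was not tested. Without group 1 the injury list had 2 of 6 and 3 of 6 genes higher.

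C4b, a complement component that glia make after injury, stood out. It gave 73 UMIs in 38 of 73 control-labelled lesional nuclei and 62 in 33 of 78 cKO-labelled lesional nuclei, or 243 and 186 CPM. The parenchymal nuclei gave 1 and 0 UMIs. The log2 ratio was 4.47 (2.53 to 10.37) in the control-labelled library and at least 7.16-fold in the cKO-labelled library. The values without the neuronal group were 4.00 and at least 1.65-fold. Unlike Gfap, it was spread over the groups, at 358, 130, 208, 150, 69.2 and 6.54 CPM in groups 1 to 6. Lesional nuclei of the oligodendrocyte rule held 566 and 573 CPM and those of the astrocyte rule 282 and 252 CPM, whereas the fibroblast rule held 62.9 and 58.5 CPM.

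Of 25 lipid genes, 3 of 10 were higher in each library, with 1 lower in the control-labelled library. Over all genes 16.8% and 25.8% were higher in the 2 libraries, so the cKO-labelled count lay near that share. With the neuronal nuclei removed 3 of 8 were higher in the control-labelled library, and 1 was higher and 3 lower of 8 in the cKO-labelled library. Abca1, a cholesterol exporter, gave 156, 19, 150 and 9 UMIs, or 519, 139, 451 and 78.1 CPM, with log2 ratios of 1.86 and 2.46, and 1.45 and 0.89 without the neuronal group. Elovl7, a fatty acid elongase, gave 57, 4, 66 and 2 UMIs, with 2.53 and 3.20, and 2.44 and 1.09 without that group. Apoe, the glial apolipoprotein, had -0.54 and -0.10, and -0.90 and -1.58 without that group. Abca1 and Elovl7 thus lay higher in the lesion with all groups, and in the control-labelled library also without the neuronal group. In the cKO-labelled library without that group Abca1 was under 2-fold. Both intervals there spanned 0 (-0.16 to 2.47 and -0.51 to 4.48), on 6 and 2 parenchymal UMIs.

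Genes past 2-fold in both libraries were then taken over all genes. Of 3552 genes with enough UMIs in both, 9.38% were higher and 5.52% lower in both lesions. The 12 lesion-higher genes with the largest smaller ratio were Piezo2, Parvb, Ttyh2, Gfap, C4b, Ggta1, Baz1a, Col4a6, Glis3, Nid2, Cnksr3 and Gm43154, the last of them a gene model. They were chosen by these values, so the values describe them.

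Piezo2, a mechanically gated channel, gave 91 and 108 UMIs in the lesions, or 303 and 324 CPM, and none in either parenchyma. This was at least 13.8-fold and 12.5-fold higher against 3 counts, and at least 10.0-fold and 2.88-fold without the neuronal group. It was seen in 34 of 73 and 35 of 78 lesional nuclei and stood at 579, 137, 156, 431 and 6.92 CPM in groups 1 to 5. In the oligodendrocyte rule Piezo2 stood at 519 and 652 CPM in the lesions and 91.1 and 119 CPM in the parenchyma, so that the same order was seen in that class. The fibroblast rule held 252 and 325 CPM in the lesions, and the part of free RNA in the precursor level was not tested.

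Several other lesion-higher genes lay mostly in group 1 or group 4. Parvb, an integrin-linked adaptor, gave 39 and 41 lesional UMIs and none in the parenchyma, at least 5.89-fold and 4.73-fold higher, and stood at 418 CPM in group 4. Cnksr3, a scaffold of kinase signalling, gave 127 and 102 lesional UMIs against 1 and 2, with 1254 CPM in group 4, and log2 ratios of 4.82 and 2.45 without the neuronal group. Gfap gave 56 and 34 lesional UMIs and none in the parenchyma, at least 8.46-fold and 3.93-fold higher, but 0 and 4 lesional UMIs without group 1. Glis3 gave 220, 2, 168 and 3 UMIs, with log2 ratios of 5.32 and 4.06, which were 1.33 and 2.33 without group 1 and 4.84 and 2.43 without the neuronal group. Col4a6 and Nid2, both of the basement membrane, stood at 592 and 312 CPM in group 1 and at most 57.7 and 14.4 CPM elsewhere. Ttyh2, a membrane protein of the tweety family, gave 38 and 35 lesional UMIs and none in the parenchyma, at least 5.74-fold and 4.04-fold higher, and was spread over groups 1, 3 and 4. Without the neuronal group the control-labelled bounds were 4.31-fold for Parvb and 6.18-fold for Gfap. In the cKO-labelled library the bound for Parvb was then 1.09-fold, and none could be given for Gfap and Ttyh2.

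The parenchyma-higher genes were Rit2, Gm20275, Kcnab1, Sgcz, Kcnn2, Hspa12a, Rtl4, Pip5k1b, Etv5, Ctnna3, Gm26691 and Gm11149. Ctnna3, an alpha-catenin, gave 35, 77, 56 and 81 UMIs, with log2 ratios of -2.27 (-2.90 to -1.68) and -2.06 (-2.58 to -1.55), and -2.52 and -2.03 without the neuronal group. Sgcz, a sarcoglycan, stood at 513, 2753, 391 and 2342 CPM, with -2.42 and -2.58, and -2.06 and -1.55 without that group. Rtl4, a retrotransposon-derived gene, gave 8, 92, 20 and 31 UMIs, with -4.59 and -2.15, and -4.72 and -2.81 without it. These 3 genes thus kept their order in both libraries, while Kcnn2, a calcium-activated potassium channel, did not. Its ratios were -2.76 and -2.39, with 79.0% of its cKO-labelled parenchymal UMIs in 1 neuronal nucleus, and -1.93 and 0.14 without that group. Hspa12a had no UMI left in the cKO-labelled parenchyma once the neuronal nuclei were removed, and its control-labelled interval then spanned 0. In the cKO-labelled library the intervals of Kcnab1, Pip5k1b, Etv5 and Gm26691 then also spanned 0, on 1 to 3 parenchymal UMIs each, while those of Rit2, Gm20275 and Gm11149 stayed below 0.

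**Figure D5:**
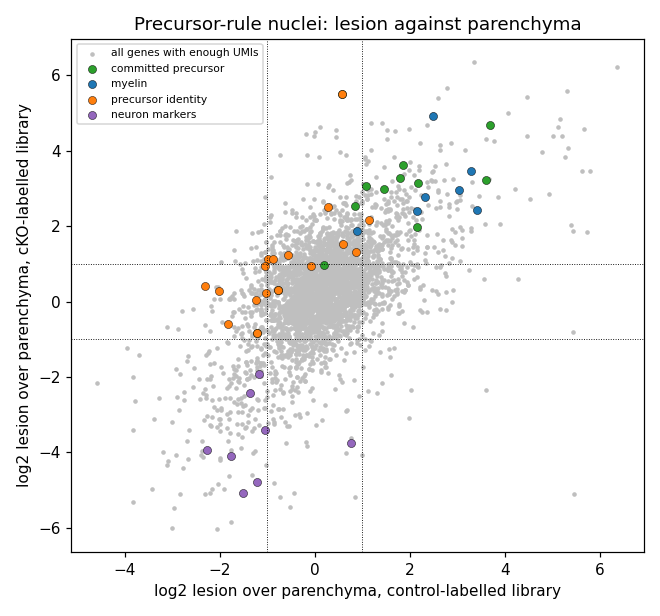
Log2 ratio of lesion to parenchyma for each gene with enough UMIs, in the control-labelled library (horizontal) and labelled Cxcl12-cKO (vertical), with 4 lists coloured and dotted lines at 2-fold. Genes with no UMI in a matrix are drawn with 0.5 added, so their place is not a bound. Committed-stage and myelin genes lie mostly at the upper right.

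The genotypes were compared in the lesion, where 73 and 78 nuclei stood against each other. Of 5185 genes with enough UMIs, 8.85% were past 2-fold, 3.84% higher and 5.01% lower in the cKO-labelled library, and the median gene stood at -0.01. The identity list, which holds genes that the rule used, lay above that median, and the committed-stage and myelin lists lay nearer to it. Of 19 identity genes 2 were higher and 0 lower (median 0.39), of 14 committed-stage genes 1 was higher and 1 lower (0.09), and of 7 myelin genes 0 were past 2-fold (-0.29). Pdgfra stood at 190 and 249 CPM, a log2 ratio of 0.39 (-0.11 to 0.91). Mbp stood at 1105 and 901 CPM and Tcf7l2 at 1281 and 1214 CPM. These differences lie between single libraries, whose spread is unknown.

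Values are given for further lists. Of 20 extracellular matrix genes 2 were higher and 1 lower (median 0.41), with sums of 6413 and 8580 CPM in the control-labelled and cKO-labelled lesions. In all other lesional barcodes that list summed to 4595 and 4967 CPM. The dividing-cell list summed to 592 CPM in the control-labelled and 1003 CPM in the cKO-labelled lesion (log2 ratio 0.76, 0.49 to 1.03), with 3 of 8 genes higher and 0 lower. In all other lesional barcodes it summed to 258 and 370 CPM. Of 30 glutamate and GABA genes 0 were higher and 7 lower, but their median was -0.08 and the list's sums were 9478 and 9401 CPM, or 8766 and 9401 CPM without the neuronal group, when 1 was higher and 1 lower of 27. Of 7 neuron markers 0 were higher and 3 lower, with summed levels of 3661 and 1968 CPM. Without the neuronal group the neuron markers stood at 1777 and 1968 CPM, the neuronal nuclei being present in the control-labelled lesion only. Myeloid markers stood at 559 and 288 CPM, with 0 higher and 3 lower of 4 genes.

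The genes most apart between the lesions were named by a rule that asked for the same sign in the female and in the male mouse. Of 3844 genes with enough UMIs, 1989 had the same sign in both at any size of ratio, so that the sign alone is a weak filter. The whole rule was passed by 77 higher and 51 lower genes. Gm42047, a gene model with no known role, gave 10 and 68 UMIs in the control-labelled and cKO-labelled lesions (log2 ratio 2.56, 1.65 to 3.74). Pvt1, a long non-coding RNA beside Myc, gave 80 and 218 UMIs in 32 and 55 nuclei (1.29, 0.92 to 1.69). Ccnd1 gave 6 and 29 UMIs (2.03, 0.83 to 3.68). In group 2 these 3 genes stood at 368, 750 and 180 CPM, their highest level in any group. Nkain3, a membrane protein that binds the sodium pump, gave 37 and 115 UMIs (1.48), Megf11, an adhesion protein, 25 and 86 (1.61), and Eps8, an actin-capping protein, 68 and 184 (1.28). Moxd1 gave 4 and 26 UMIs (2.41) and Brinp2 18 and 64 (1.65). Without group 1 the ratios of these 8 genes were 1.19 to 2.96, all of the same sign. Group 1 held 0 to 3 UMIs each of Gm42047, Moxd1, Megf11, Nkain3 and Ccnd1, and 59, 14 and 24 of Pvt1, Brinp2 and Eps8. The genes were also chosen by their ratio in these same nuclei, so nothing is read from the kept sign.

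Lower genes lay mostly in group 1. Col4a5, a basement membrane collagen chain, gave 53 and 9 UMIs (-2.64), but its ratio was -0.94 without group 1. Prex2, a Rac exchange factor, gave 65 and 19 UMIs (-1.90), and 3.01 on 5 UMIs without group 1. Sntb1, a syntrophin, gave 38 and 11 UMIs (-1.89) and P4ha3 28 and 7 (-2.07), of which group 1 held 49 and 35 UMIs over all matrices. Group 1 was 29 of 73 control-labelled and 17 of 78 cKO-labelled lesional nuclei, and its share is not a separate result from these genes. Gabrb1, a GABA-A receptor subunit, gave 211 and 103 UMIs (-1.18, -1.54 to -0.84), with -2.11 without group 1 and -0.55 without nuclei that held UMIs of both sexes.

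For 3 of the lower genes few nuclei or 1 mouse decided the value. Mmp12, a macrophage elastase, gave 27 and 3 UMIs, with 26 of the 27 in 1 nucleus. Mamdc2 gave 37 and 12 UMIs (-1.73), with 17 of the 37 in 1 nucleus. Grm8, a metabotropic glutamate receptor, gave 74 and 14 UMIs (-2.51, -3.49 to -1.71), and the male mice 41 and 0.

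In the parenchyma 19 and 12 nuclei were compared. Of 2351 genes with enough UMIs, 11.5% were higher and 13% lower in the cKO-labelled library. Of 17 identity genes 0 were higher and 11 lower (median -1.29), and of 9 neuron markers 5 were higher and 0 lower (1.33). Without the neuronal group 6.21% of genes were higher and 7.27% lower, no identity gene was past 2-fold (median -0.06), and none of 4 neuron markers was. The number of genes past 2-fold was 575 with those nuclei and 141 without them. The 141 genes left past 2-fold lie between single libraries, and a difference between the genotypes in parenchymal precursors was not tested.

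The ligand that was targeted and its receptors were near or at the floor in precursors. Cxcl12, a chemokine, gave 3, 1, 6 and 1 UMIs, while it stood at 59.7, 2.40, 126 and 3.72 CPM in the other barcodes. Cxcr4, its signalling receptor, gave 0 UMIs in the 182 nuclei, with upper 95% limits of 12.3, 27.1, 11.1 and 32.0 CPM. Ackr3, its scavenging receptor, gave 4, 4, 1 and 3 UMIs. No comparison of these genes between regions or libraries could be made from so few UMIs.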

How the data were processed

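Nuclei were isolated by the authors from lesion and perilesional tissue, tagged by region, sorted on DAPI and sequenced as 10x 3′ libraries. The deposited values are raw UMI counts per gene and barcode, 1 matrix per region and library, made by the authors with Cell Ranger 9.0.0 on GRCm39 per the labels, and already limited to called cells assigned to a tag. Each matrix held 33696 gene and 12 tag features. The 52 features that share 26 symbols were kept apart. The tag libraries and expression libraries make 4 samples in the labels, and 1 male and 1 female mouse were pooled in each library.

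Precursor nuclei and comparison classes were found by the UMI rules given in the text. Members, rules and all 23 gene lists were chosen with earlier results of these data known. Within each matrix the UMIs of its precursor nuclei were added up and scaled to 1000000 (CPM). Log2 ratios carried 0.5 added to each sum and an exact conditional binomial 95% interval. With 1 library per genotype no test was made, and a gene counted as past the threshold at 2-fold and 20 UMIs (30 for named genes between genotypes). Where a matrix had no UMI, the fold was bounded by 3 counts over its precursor nuclei.

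Named genes between regions were the 12 per direction with the largest smaller ratio among genes past 2-fold in both libraries, not lower in precursors than in other barcodes of the matrix. Between genotypes they were the 8 per direction whose interval lay furthest from 0, with the same sign in both mice. The 3 list members with the most UMIs and those past 2-fold in both libraries could also be named. Gpr17, Neu4, Nkx2-2, Mki67, Prim2, Aldh1a1, Gja1 and Prx were named after their values were seen.

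Groups came from scanpy 1.11.5 (counts scaled to 10000 and log transformed, 1500 variable genes, 10 principal components, 15 neighbours, Leiden resolution 0.8). Thinning and the simulated data used seed 1. Doublets were treated only by the rule's limit on genes of other types, since no caller was run, and nuclei with UMIs of both sexes were counted. Intervals came from scipy 1.17.1 and figures from matplotlib 3.10.9, in Python 3.11.15. The ratio and interval code was tested on simulated data. Each value was recomputed under 13 other settings and under 4 more that were chosen after seeing the data (thinned barcodes, no neuronal group, no P4ha3 and Gfap group, and fibroblasts out of the denominator). No genome sequence of the build of the files was used, so no coordinates are given. A few genes are not reported here.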

Additional observations from a re-analysis of the deposited data

Results flagged for a closer look

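The share of precursor nuclei in the lesion lay in opposite order in the mice of each sex. In nuclei assigned to the female mice the log2 ratio of the cKO-labelled to the control-labelled share was 0.81 (0.01 to 1.64), and in nuclei assigned to the male mice it was -0.35 (-1.19 to 0.47). Each value compares 1 mouse with 1 mouse, with intervals for counting error only, and the difference between the sexes was not tested. Groups held too few samples for a search for outlying samples.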

How the results depend on the processing

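No paired analysis was possible because the labels give 1 expression library per genotype and no numbered replicates. Lesion and parenchyma come from the same mice, and the values of the mice assigned by Xist and Y-linked UMIs are given as those of the female and male mice. Of 48 values of the shares 42 moved by less than the counting interval under the alternatives, and of 949 values of named genes 854 did so and 15 reversed. Of 1089 list medians 629 moved by less than the interval and 16 reversed. The causes of the shifts given here were not tested, beyond fewer nuclei or genes by construction. The 19 and 12 parenchymal nuclei limit every comparison with the parenchyma, and the single male cKO-labelled parenchymal nucleus limits the male values. Counts of genes past 2-fold were 1104 (lesion over parenchyma, control-labelled), 1592 (the same, cKO-labelled), 459 (genotypes, lesion) and 575 (genotypes, parenchyma), and of list members 108, 127, 36 and 57, and all values are given in that order where 4 stand together.

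With a minimum of 1 UMI the gene counts were 6885, 6863, 5909 and 6886 and the list members 242, 246, 127 and 170. At 50 UMIs the gene counts were 440, 704, 98 and 206, with 66 list members in the first comparison and 14 in the third. In nuclei with a Pdgfra UMI they were 369, 437, 209 and 217, with 34, 44, 13 and 19 list members. There the control-labelled share ratio was -0.88, the control-labelled myelin median -0.55 on 1 gene, Kcnn2 in the cKO-labelled library 0.54 and Mamdc2 between genotypes 0.82. The share of nuclei with 3 or more committed-stage UMIs was 100% in all but the control-labelled parenchyma, and that with 2 or more dividing-cell genes 33.3% and 40% in the lesions. With each nucleus weighted alike the parenchymal genotype comparison had 31 list members.

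In the female mice the gene counts were 430, 783, 278 and 371, with 59, 79 and 22 list members in the first 3 comparisons. The share ratios were -0.31 for the control-labelled regions and 0.81 for the lesions, and 95.5% of control-labelled lesional nuclei passed the committed-stage count. In the male mice the last 3 gene counts were 489, 288 and 269 and the list members 51, 18 and 37. The male share ratios were 3.30 for the cKO-labelled regions and -2.39 for the parenchyma. On 1 parenchymal nucleus, male cKO-labelled ratios were -1.21 for Ttyh2, Gfap and Col4a6, -0.41 for C4b, -0.50 for Ggta1, -0.70 for Baz1a, -1.40 for Glis3 and -1.55 for Nid2 and Gm43154, and Gm26691 in the control-labelled library was 2.26. Male medians between cKO-labelled regions were -1.09 (identity), -2.49 (TGFβ), -0.0070 (extracellular matrix) and -1.68 (Schwann cell markers), and between genotypes 1.01 (identity, parenchyma), -1.07 (neuron markers, parenchyma) and 0.045 (myeloid markers, lesion).

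Without any UMI of the genes of other cell types, gene counts were 784 (cKO-labelled regions) and 191 (parenchymal genotypes), and the last 3 list counts 64, 21 and 20. Medians were -0.54 (identity), -0.21 (TGFβ) and -0.71 (myeloid markers) between cKO-labelled regions and 0.32 (identity), 0.51 (committed stage) and -0.97 (neuron markers) between parenchymas, and Kcnn2 was 0.14. Without nuclei of both sexes the gene count between parenchymas was 370 and the last 2 list counts 18 and 35. Without the neuronal group the gene count between parenchymas was 141, the list counts between cKO-labelled regions and between parenchymas 83 and 5, Kcnn2 0.14, and medians -0.54 (identity, cKO-labelled regions) and -0.11 (neuron markers, parenchyma). Without the P4ha3 and Gfap group Prex2 was 3.01 and the committed-stage shares 95.5% and 98.4% in the lesions. In cKO-labelled parenchyma the dividing share was 0% under 5 of these settings (female mice, male mice, no UMI of other types, no nuclei of both sexes, no neuronal group), and the committed share 100% in male mice, with no UMI of other types and without the neuronal group. With fibroblasts out of the denominator the control-labelled share ratio was 1.67.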

Other observations

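The 2 groups that held most Pdgfra can be set side by side, group 2 with 35 lesional nuclei and group 5 with 28 nuclei, of which 20 were parenchymal. Both groups were made from these genes, so the values describe them. Several genes of precursors stood at like levels, with log2 ratios of group 2 to group 5 of 0.09 for Ptprz1 (-0.10 to 0.28), 0.03 for Dscam (-0.12 to 0.19), 0.02 for Luzp2 (-0.20 to 0.25) and -0.03 for Kcnd2 (-0.19 to 0.12). Pdgfra itself was -0.78 (-1.18 to -0.39).

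Gpc5 stood at 281 CPM in group 2 and 4524 CPM in group 5, a log2 ratio of -3.99 (-4.51 to -3.54). Rtl4 gave 2 and 99 UMIs, Apoe -2.04 and the GABA-A receptor subunit Gabrb1 -2.07. The synaptic adhesion gene Lrrtm4 had -1.30 and the metabotropic receptor Grm7 -1.46. In the other direction Pvt1 gave 104 and 17 UMIs (2.64, 1.93 to 3.51), the collagen gene Col11a1 1.58 (1.06 to 2.16), and Piezo2 19 and 1 UMIs. On whole lists the 2 groups lay closer together, at 14105 and 15827 CPM for extracellular matrix genes and 10440 and 11559 CPM for glutamate and GABA genes. Region, library and group cannot be told apart in them.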
